A study of Mus musculus with 84 samples.

Results

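Calpains are cysteine proteases that are switched on by calcium and cut their substrates at few sites, so that a protein is altered rather than destroyed. The conventional calpains, Capn1 and Capn2, each pair a protease subunit with the shared small subunit Capns1 and are held in check by the inhibitor calpastatin, encoded by Cast. Capn3 is best known from skeletal muscle and Capn8 from stomach, while Capn5, Capn7 and Capn10 lack the calcium-binding domain that pairs with the small subunit. The genes described here were 8 calpain genes, Capn1, Capn2, Capn3, Capn5, Capn7, Capn8, Capn10 and Capns1, found by gene symbol among the 17695 genes of the deposited mouse liver counts. The set was chosen by measured values: Capn3 and Capn8 were put forward because they were low in mice given 80 ppm parathion, and Capn8 also because it was low with fenthion, so their values in those groups are descriptions and carry no test.

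Liver RNA of 84 male B6C3F1 mice, 8 weeks old by the labels, was measured by TempO-Seq, a targeted assay in which pairs of detector oligos are ligated on a transcript and sequenced. Each of 12 groups held 7 mice that ate medicated or plain AIN-93G diet for 7 days. Con0ppm was the control group, and the dosed groups received fenthion (FT2.5ppm, FT5ppm, FT10ppm, FT20ppm), methidathion (MT10ppm, MT25ppm, MT50ppm, MT100ppm) or parathion (PT20ppm, PT40ppm, PT80ppm), 3 organophosphate pesticides whose main target is acetylcholinesterase. Every group held 2 mice of block 1, 3 of block 3 and 2 of block 4. RNA of 77 mice had the isolator label EA and RNA of 7 mice the label EPA: 2 each in Con0ppm, FT20ppm and MT100ppm and 1 in MT10ppm. Total counts per mouse lay between 6950381 and 15300589. Levels are given as counts per 1000000 of a mouse's total (CPM), in which 3 counts correspond to 0.196 to 0.432 CPM. A level depends on the detector oligos of a gene as well as on its RNA, so levels were compared between mice and not between genes. In bulk liver, fewer cells of a type and less RNA per cell cannot be told apart.

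All 8 genes passed the filter of a median count above 8, which 10415 genes passed. The fewest counts were those of Capn3, with a median of 12 per mouse (range 3 to 25), followed by Capn8 with 21 (0 to 139), Capn1 with 30 (14 to 56) and Capn5 with 31 (15 to 56). Capn10 had 94.5 (48 to 172), Capn2 99.5 (45 to 300), Capn7 238 (95 to 355) and Capns1 862.5 (458 to 1546). A count was a whole number in every mouse for Capn1, Capn2, Capn3 and Capn5, whereas 65 of 84 values of Capns1 were not. The hepatocyte markers Alb, Apoa1, Ttr and Cps1 were detected in all mice, with a summed level of 15642 to 38368 CPM. The 5 skeletal muscle markers summed to 4.18 to 32.2 CPM, of which Ckm was at 0 in 53 mice and Tnnt3 in 64. Of 4 stomach markers only Tff1 was found by the gene symbol used, and it was at 0 in 76 of 84 mice. The other stomach markers were not analysed here.

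In GRCm39, the build of the deposited counts (mm39), Capn2 (chr1:182294819-182345339, minus strand) and Capn8 (chr1:182392572-182459917, plus strand) are neighbours that point away from each other, with 47232 bases and no other coding gene between them. Capn10 lies on the same chromosome (chr1:92862093-92881692, plus) and overlaps Gpr35. Capn3 (chr2:120294048-120338450, plus) overlaps Zfp106 on the other strand. Capns1 (chr7:29886361-29898304, minus) and Capn5 (chr7:97770766-97827906, minus) share a chromosome. Capn7 (chr14:31058544-31100290, plus) overlaps Sh3bp5 on the other strand, and Capn1 lies at chr19:6038566-6066148 (minus).

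The coding sequences show in which members an active-site pattern occurs and how long the stretches are that members share. The pattern of glycine, any residue, cysteine and tryptophan around the active-site cysteine occurred 1 time each in Capn1, Capn2, Capn3, Capn5, Capn8 and Capn10. It was absent from Capns1, the subunit that is not a protease, and from Capn7, which is a protease. An active-site cysteine with other neighbouring residues would not be found by this search. The 45 coding bases centred on the cysteine codon of the pattern are given here 5′ to 3′ from the GENCODE canonical transcripts, with the cysteine codon in capitals:
Capn1 (codon 115, exon 4, chr19:6063730-6063732): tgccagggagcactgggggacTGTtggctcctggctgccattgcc
Capn2 (codon 105, exon 3, chr1:182320428-182320430): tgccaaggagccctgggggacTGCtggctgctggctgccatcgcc
Capn8 (codon 105, exon 3, chr1:182424517-182424519): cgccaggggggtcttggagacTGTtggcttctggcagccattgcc
Capn3 (codon 129, exon 3, chr2:120312596-120312598): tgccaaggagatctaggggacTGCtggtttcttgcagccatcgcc
Capn5 (codon 81, exon 3, chr7:97801073-97801075): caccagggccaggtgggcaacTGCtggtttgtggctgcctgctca
Capn10 (codon 73, exon 2, chr1:92865742-92865744): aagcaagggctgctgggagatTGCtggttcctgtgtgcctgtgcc
Capn2 and Capn8 had coding sequences of 2100 and 2109 bases that were identical at 68.6% of 2069 aligned bases, and Capn1 and Capn2 at 69.9% of 2058. By the same alignment the shorter Capns1 had between 73.9% (Capn1) and 77.8% (Capn2) with the other members. These percentages therefore do not rank how closely members are related. The longest run of identical bases shared by any transcripts of 2 members was 26 (Capn1 and Capn2). It was 21 between Capn2 and Capn8 and 22 between Capn3 and Capn8.

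Capn3 and Capn8, which were chosen for low values at PT80ppm, had promoters with fewer CpG dinucleotides than the 5 other members with an entry. The GC content of their promoters (47.7% to 59%) overlapped that of the others (50% to 67%). Any link between promoters and levels was not tested. The RefSeq promoter table (GRCm38.p6, 250 bases before to 50 after a start) held 9 entries for 7 of the 8 genes, with 2 each for Capn1 and Capn3 and none for Capn5. The Capn8 promoter held 1 CpG dinucleotide, as 14.1% of 32851 promoters did (1 or none), and the Capn3 promoters held 6 and 4. Capns1 had 14 and the Capn1 promoters 14 and 15. In Capn2 there were 27, in Capn7 25 and in Capn10 21, and 26.5% of all promoters held 20 or more. The median over all promoters was 7. The promoters of Capn8 and its neighbour Capn2 and both promoters of Capn3 are shown 5′ to 3′ on the gene's strand, with each match to the CCAAT box (CCAAT, either strand) in capitals:
Capn8, GRCm38.p6 chr1:182564757-182565056, plus: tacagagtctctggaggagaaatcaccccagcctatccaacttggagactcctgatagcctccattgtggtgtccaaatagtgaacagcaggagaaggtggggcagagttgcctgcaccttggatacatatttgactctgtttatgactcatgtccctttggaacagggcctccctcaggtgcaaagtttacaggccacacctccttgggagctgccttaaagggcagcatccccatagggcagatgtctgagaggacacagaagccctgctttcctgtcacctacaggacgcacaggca
Capn2, GRCm38.p6 chr1:182517561-182517860, minus: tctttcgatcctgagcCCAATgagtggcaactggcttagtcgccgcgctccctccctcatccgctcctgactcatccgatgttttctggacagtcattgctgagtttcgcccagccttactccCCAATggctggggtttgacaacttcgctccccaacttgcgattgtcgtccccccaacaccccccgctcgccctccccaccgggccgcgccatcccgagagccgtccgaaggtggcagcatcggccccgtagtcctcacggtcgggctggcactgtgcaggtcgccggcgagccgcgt
Capn3, GRCm38.p6 chr2:120463343-120463642, plus: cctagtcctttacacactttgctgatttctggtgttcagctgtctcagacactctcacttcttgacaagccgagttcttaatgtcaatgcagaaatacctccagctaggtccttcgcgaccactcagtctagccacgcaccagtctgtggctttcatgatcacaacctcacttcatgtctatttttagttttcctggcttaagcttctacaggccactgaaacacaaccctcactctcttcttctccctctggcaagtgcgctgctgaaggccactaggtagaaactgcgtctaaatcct
Capn3, GRCm38.p6 chr2:120476659-120476958, plus: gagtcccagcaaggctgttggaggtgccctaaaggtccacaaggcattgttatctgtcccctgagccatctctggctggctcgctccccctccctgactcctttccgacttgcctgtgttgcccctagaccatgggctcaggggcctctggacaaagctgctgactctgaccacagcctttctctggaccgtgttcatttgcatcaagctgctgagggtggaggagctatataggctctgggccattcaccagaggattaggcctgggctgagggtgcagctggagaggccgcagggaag
CCAAT occurred 2 times in the Capn2 promoter and not in those of Capn8 or Capn3. It was found in 37.4% of all promoters. The GC box (GGGCGG, either strand, in 35.7% of promoters) and the TATA box (TATAAA, either strand, in 13.6%) had no match in any of these 4 sequences.

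Capn8, the stomach calpain, varied most from mouse to mouse and was highest in the control group. Within groups its coefficient of variation had a median of 74.1% (54.45% to 105%), against 21.8% from counting alone at its median count. The 7 control mice had 7, 22, 139, 47, 98, 93 and 53 counts. That is 0.548 and 1.71 CPM in the mice of block 1, 10.4, 4.38 and 9.96 in block 3, and 8.275 and 4.52 in block 4. The control group thus held both low mice and the 3 highest mice of the whole series. Of these highest mice, those at 10.4 and 8.275 CPM had the isolator label EPA, which no mouse at PT80ppm or FT10ppm had. The control mean was 9.35 CPM in the 2 EPA mice and 4.22 in the 5 EA mice. Over all groups, the log2 difference of Capn8 by edgeR, EPA over EA, was 0.18 ± 0.42 (SE, adjusted p = 0.67). At PT80ppm, the mice had 2.57 and 0.08015 CPM in block 1, 1.93, 0.264 and 0.924 in block 3, and 0.647 and 0.779 in block 4. At FT10ppm they had 0.37 and 0 CPM in block 1, 0.687, 0.3435 and 1.92 in block 3, and 1.64 and 2.61 in block 4. Both groups overlapped the control group through its mice of block 1, with 2 mice at PT80ppm and 3 at FT10ppm below the lowest control mouse.

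The group medians of Capn8 ran from 0.663 CPM at FT5ppm, 0.687 at FT10ppm and 0.779 at PT80ppm through 1.49 at FT2.5ppm, 1.56 at MT100ppm, 1.58 at MT10ppm and 1.77 at PT40ppm. Above these lay 2.01 at MT50ppm, 2.185 at FT20ppm, 2.195 at PT20ppm, 2.57 at MT25ppm and 4.52 in Con0ppm. Each group's range overlapped that of the next in this order, which does not show that they are equal. Of these neighbours, only MT25ppm with Con0ppm and FT20ppm with PT20ppm were tested against each other, and neither pair was called. Against control, the log2 fold change by edgeR with block and isolator as covariates was -2.30 ± 0.57 (SE, n = 7 per group) at PT80ppm and -2.31 ± 0.57 at FT10ppm, values for which the gene had been chosen. It was -2.34 ± 0.57 at FT5ppm, -1.71 ± 0.52 at MT100ppm and -1.49 ± 0.53 at FT2.5ppm. In the other groups it was -1.27 ± 0.51 at MT10ppm, -1.19 ± 0.53 at MT50ppm, -1.08 ± 0.51 at PT40ppm, -1.02 ± 0.50 at FT20ppm, -0.99 ± 0.51 at MT25ppm and -0.78 ± 0.51 at PT20ppm. These 11 comparisons use the same 7 control mice, so their signs are not separate observations.

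**Figure D1:**
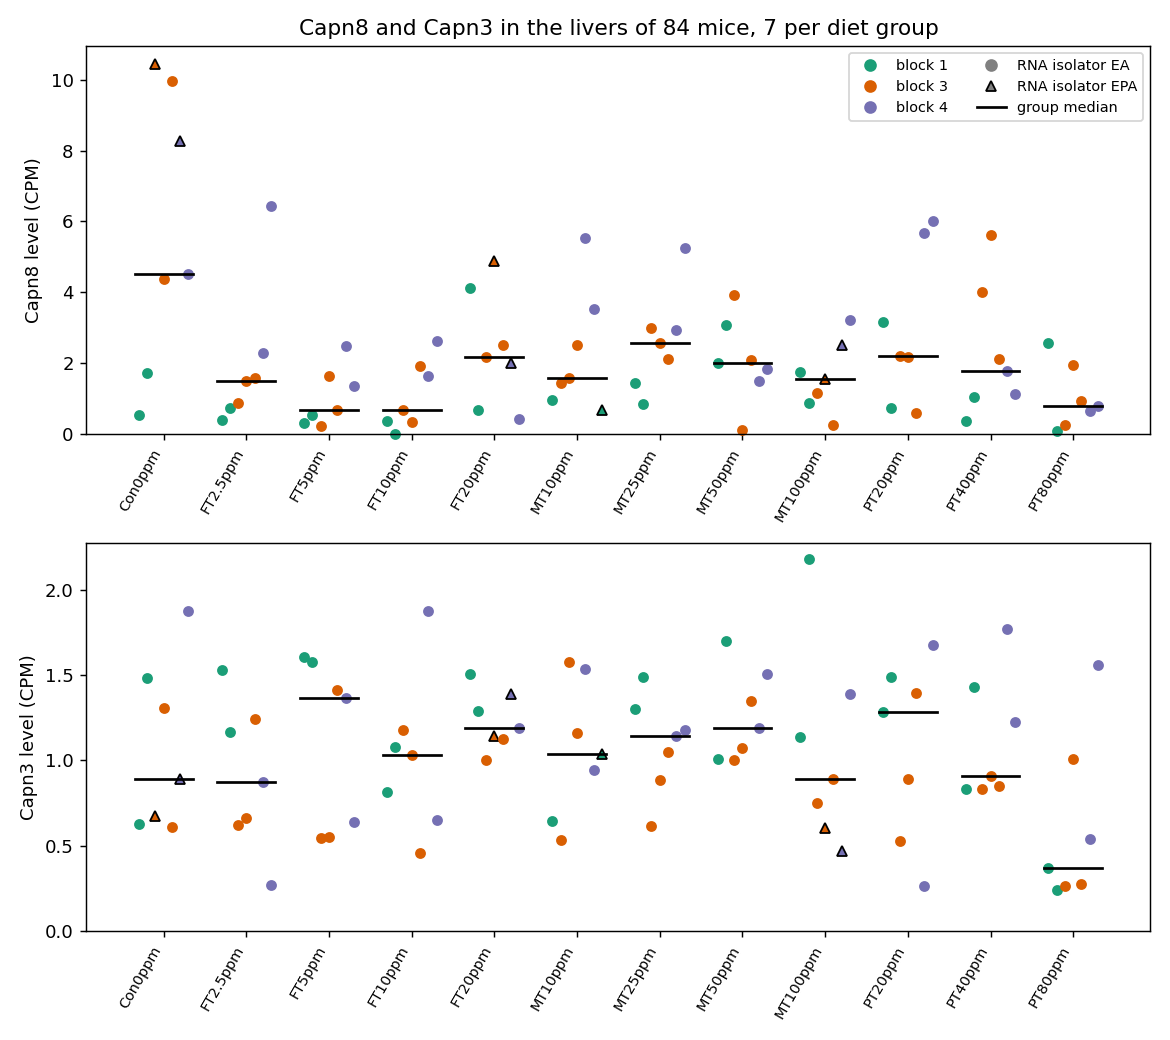
Level (CPM, 1 point per mouse) of Capn8 (upper panel) and Capn3 (lower panel) in the 12 diet groups, coloured by block, with triangles for RNA isolator EPA and a line at each group's median. The control median of Capn8, 4.52 CPM, is above all dosed medians, while 5 of 7 mice at PT80ppm lie below the lowest control mouse for Capn3.

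Within blocks, the lower Capn8 level at PT80ppm was seen in blocks 3 and 4. Mean levels at PT80ppm and in control were 1.04 and 8.26 CPM in block 3 and 0.713 and 6.40 in block 4, but 1.33 and 1.13 in block 1. Each of the control means of blocks 3 and 4 includes an EPA mouse, and these plain means are not adjusted for isolator. At FT10ppm the dosed mean was lower in each block, by a ratio of 0.163 in block 1, 0.119 in block 3 and 0.332 in block 4. Without block 3, the log2 fold change was -1.65 ± 0.79 (SE) at PT80ppm and -1.73 ± 0.76 (SE) at FT10ppm. Without that block, the log2 fold change of Capn8 at PT20ppm was 0.16 and the difference between PT80ppm and PT40ppm 0.07, so their direction rests on block 3.

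Capn3, the muscle calpain, sat near the limit of counting. At its median of 12 counts over all mice, 28.9% of variation is expected from counts alone. The PT80ppm group had a median of 4 counts, where the share from counting is larger, and its lowest mice sat at the floor of 3 counts. The control mice had 8, 19, 9, 14, 6, 10 and 22 counts and the PT80ppm mice 4, 3, 3, 12, 3, 5 and 18. In CPM the control mice lay at 0.61, 0.626, 0.675, 0.89, 1.31, 1.48 and 1.88 and the PT80ppm mice at 0.241, 0.264, 0.277, 0.368, 0.539, 1.01 and 1.56. At PT80ppm 5 of 7 mice were below every control mouse, and the 2 others lay within the control range. The log2 fold change, a value for which the gene had been chosen, was -1.002 ± 0.34 (SE). The dosed mean was below the control mean in each block, 0.304 against 1.05 CPM in block 1, 0.517 against 0.864 in block 3 and 1.05 against 1.38 in block 4. Leaving out single mice of either group moved the estimate between -1.41 (without PT80ppm replicate 7) and -0.83 (without PT80ppm replicate 2). It was -0.81 without block 1, -0.99 without block 3 and -1.27 without block 4.

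In the other 10 dosed groups, Capn3 did not pass the test, with log2 fold changes between -0.36 (FT2.5ppm) and 0.19 (FT20ppm). Its group medians outside PT80ppm (0.368 CPM) lay between 0.874 CPM at FT2.5ppm and 1.37 at FT5ppm. Against the lower parathion doses, which share the PT80ppm mice but no control mice, Capn3 was lower by a log2 difference of -0.92 ± 0.33 (PT40ppm) and -0.91 ± 0.33 (PT20ppm). Capn8 was lower by -1.21 ± 0.58 and -1.51 ± 0.57. Zfp106, on the strand opposite Capn3 and with a median of 830.5 counts, had a log2 fold change of 0.23 ± 0.08 at PT80ppm (adjusted p = 0.028), the direction opposite to Capn3. Whether the counting used the strand is not given in the sources used here.

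Across genes, 18.6% of 10415 were called at PT80ppm, 15.6% against PT40ppm and 21.9% against PT20ppm (edgeR, Benjamini-Hochberg adjusted p under 0.05). Of the 8 members, 2 were called at PT80ppm (Capn3 and Capn8), 1 against PT40ppm (Capn3) and 2 against PT20ppm (Capn3 and Capn8). Against PT20ppm limma called Capn8, Capn7 and Capns1 but not Capn3, with Capn7 and Capns1 higher at PT80ppm by 0.29 and 0.30 on the log2(CPM + 1) scale (adjusted p = 0.032 and 0.048). By edgeR both differences were 0.20 (adjusted p = 0.21 and 0.24). Since these genes were chosen on the PT80ppm mice, nothing is read from the counts. The 6 other members were not called at PT80ppm. Of these, Capn5 came nearest, with a log2 fold change of -0.44 ± 0.17 (adjusted p = 0.056), and Capn1, Capn2, Capn7, Capn10 and Capns1 lay between -0.30 and -0.0028 with adjusted p from 0.26 to 0.99. No member had CPM at PT80ppm that failed to overlap the control group, against 1.44% of all genes. Some cell type markers moved in the same mice. The 3 Kupffer cell markers summed to a median of 66.9 CPM (9.19 to 81.8) at PT80ppm against 83.65 (62.9 to 136) in control. Clec4f, Cd5l and Ptprc, the only leukocyte marker tested, were called lower, and Vsig4 was not called (adjusted p = 0.19). The hepatocyte marker Cps1 was called higher (log2 fold change 0.88, adjusted p = 0.0041), while Alb, Apoa1 and Ttr were not called. The part of these markers in the calpain values was not tested.

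**Figure D2:**
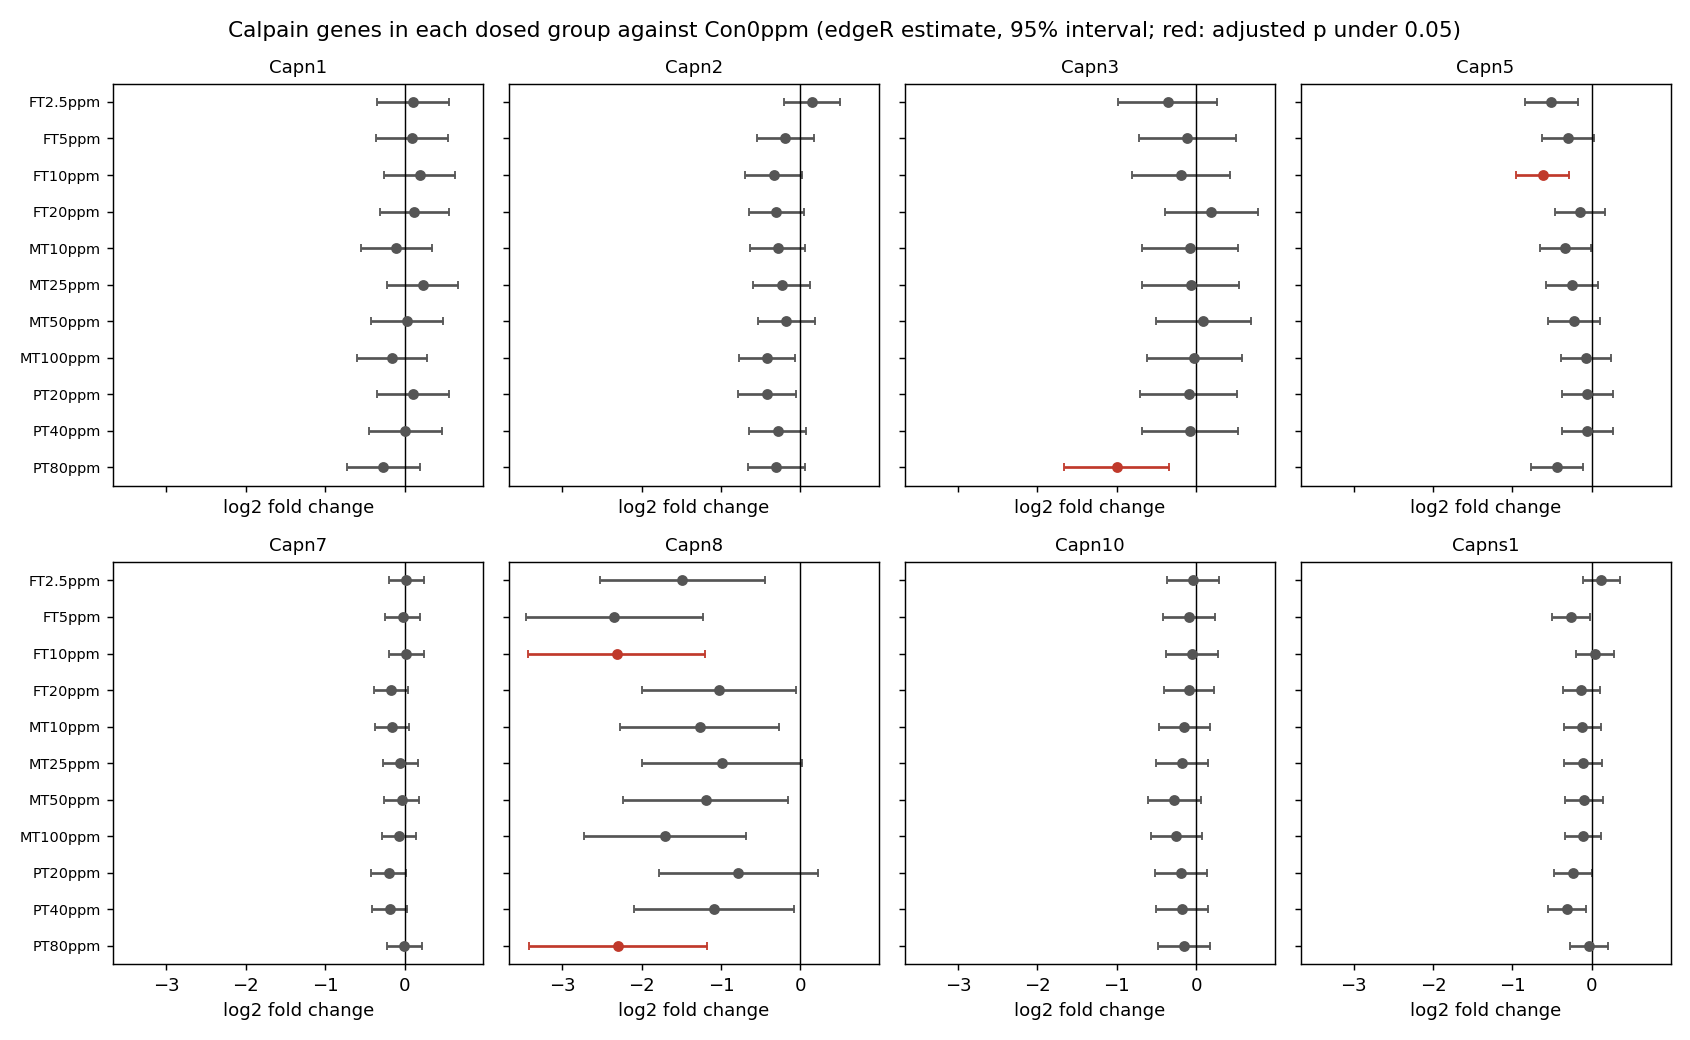
Log2 fold change of each calpain gene in each dosed group against Con0ppm, with the edgeR estimate as a point and its 95% interval (1.96 SE either side) as a bar, in red where the adjusted p was under 0.05. The Capn8 estimates lie at -0.78 or below in all 11 groups, which share 1 control group. The only red points are Capn8 at PT80ppm and FT10ppm, Capn3 at PT80ppm and Capn5 at FT10ppm.

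Capn5, a member without the small-subunit binding domain that is related to a sex-determination protease of nematodes, was lower at FT10ppm. The control mice had 3.21, 3.42, 2.78, 3.26, 3.25, 2.94 and 3.58 CPM and the FT10ppm mice 2.14, 1.93, 2.16, 2.52, 2.01, 1.72 and 2.425. The groups did not overlap, which held for 0.49% of all genes in this comparison. The log2 fold change was -0.62 ± 0.17 (SE, n = 7 per group, adjusted p = 0.046), and 1.57% of 10415 genes were called at FT10ppm. The mean ratio of dosed to control was 0.614 in block 1, 0.720 in block 3 and 0.636 in block 4. Capn5 kept its call in 3 of 14 refits that left out 1 mouse (control replicate 2 or 3 or FT10ppm replicate 7), with log2 fold changes from -0.67 to -0.56 and adjusted p up to 0.14. It was not called without the filter on low counts, by limma, in EA mice alone, in control and FT mice alone, or when any 1 of the blocks was left out. Together with Capn8, which was chosen on fenthion values, 2 of 8 members were called at FT10ppm.

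The other fenthion doses did not order Capn5 by dose. Its mean was 2.31 ± 0.656 CPM (SD) at FT2.5ppm, 2.66 ± 0.461 at FT5ppm, 2.13 ± 0.278 at FT10ppm and 2.97 ± 0.465 at FT20ppm, against 3.21 ± 0.274 in control. FT10ppm was lower than FT20ppm by a log2 difference of -0.47 ± 0.17 (adjusted p = 0.25), which did not pass, and for Capn8 this difference was -1.29 ± 0.59 (adjusted p = 0.34). No member was called between FT10ppm and FT20ppm by edgeR, DESeq2 or limma, and 2 had an unadjusted p under 0.05. Of all genes 0% were called there.

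In the remaining dosed groups no member was called. At MT100ppm 0.0768% of all genes were called and no member was by edgeR, DESeq2 or limma, with unadjusted p under 0.05 for Capn2 and Capn8. Of the other 8 dosed groups, FT2.5ppm, MT50ppm and PT20ppm had 0.0096% of genes called each and FT5ppm, FT20ppm, MT10ppm, MT25ppm and PT40ppm 0%. No member was called in any of them by edgeR, DESeq2 or limma, and between 0 and 2 members per group had an unadjusted p under 0.05. Besides Capn8, these were Capn5 at FT2.5ppm and MT10ppm, Capns1 at FT5ppm and PT40ppm, and Capn2 at PT20ppm. The largest of them after Capn8 was Capn5 at FT2.5ppm, with -0.51 ± 0.17 and adjusted p = 0.26.

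The conventional calpains and their small subunit were not called in any dosed group against control by edgeR. Capn1, the protease of mu-calpain, had group means between 2.31 ± 0.842 CPM (SD, MT100ppm) and 3.02 ± 0.904 (FT10ppm), with 2.56 ± 0.505 in control. Its log2 fold changes ran from -0.27 at PT80ppm to 0.23 at MT25ppm. Capn2, the protease of m-calpain, had its highest mean in control, 13.1 ± 6.16 CPM, and its lowest at PT20ppm, 7.54 ± 1.09. With block and isolator in the model its log2 fold changes ran from -0.42 at MT100ppm to 0.15 at FT2.5ppm. Capns1 ranged from 63.25 ± 11.8 CPM at PT40ppm to 85.8 ± 26.1 at FT2.5ppm, where 1 mouse stood at 140.3 CPM, with 81.2 ± 18.7 in control. Its log2 fold change was -0.31 ± 0.12 at PT40ppm (adjusted p = 0.47).

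Capn7 and Capn10 were also not called in any dosed group against control by edgeR. Capn7, which is known to bind proteins of the endosomal sorting machinery, had means between 17.9 ± 2.73 CPM at PT20ppm and 22.25 ± 4.16 at PT80ppm, and log2 fold changes from -0.20 to 0.02. Capn10, a gene known from genetic studies of type 2 diabetes, had means between 7.58 ± 1.53 CPM at MT50ppm and 9.98 ± 1.92 in control, and log2 fold changes from -0.27 to -0.03. With intervals of about 0.22 either side for Capn7 and 0.33 for Capn10, smaller changes were not detectable in these groups.

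**Figure D3:**
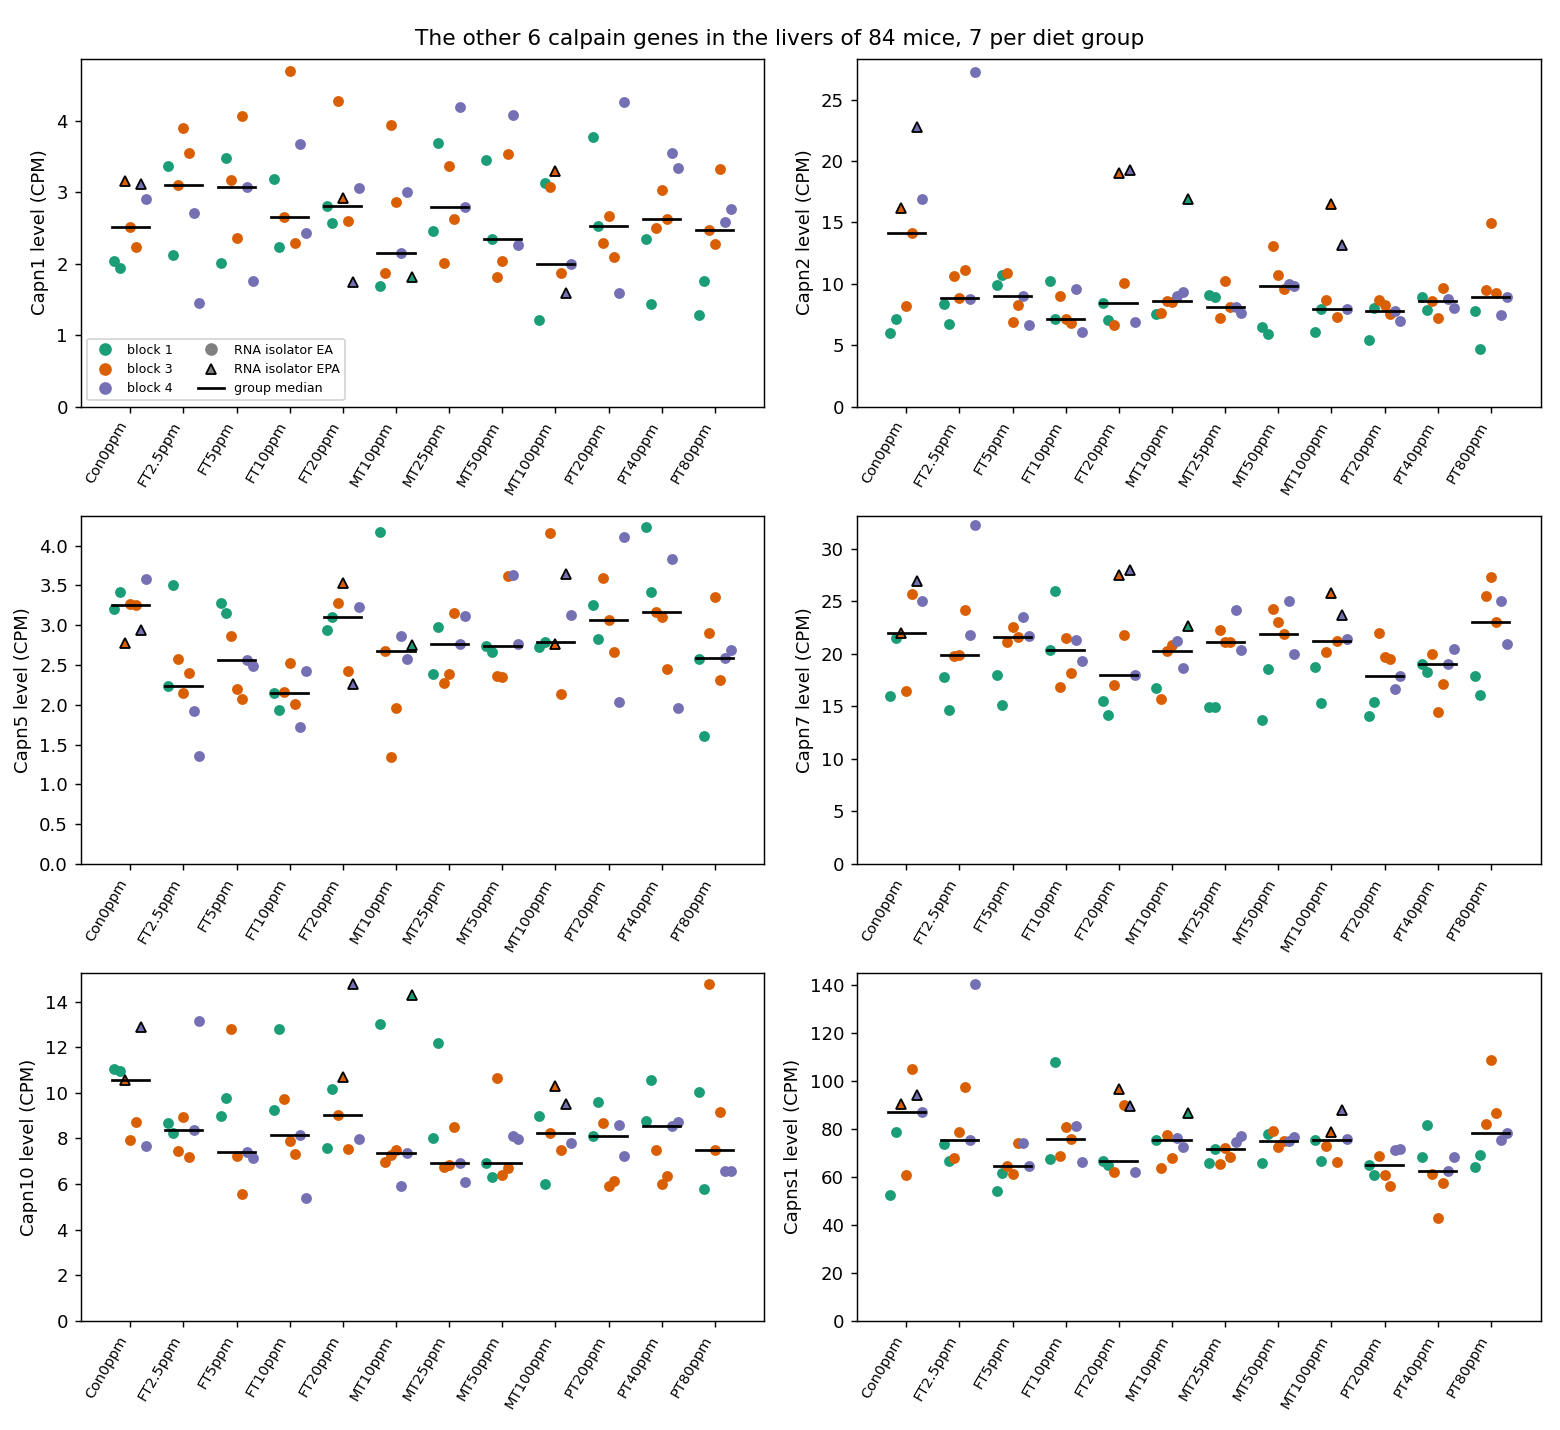
Level (CPM, 1 point per mouse) of Capn1, Capn2, Capn5, Capn7, Capn10 and Capns1 in the 12 diet groups, coloured by block, with triangles for RNA isolator EPA and a line at each group's median. Capn5 at FT10ppm (1.72 to 2.52 CPM) lies below all control mice (2.78 to 3.58 CPM), and the EPA mice are high for Capn2.

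The pesticides were compared at the 2 doses that matched in ppm, and 2 pairs were tested. Fenthion and methidathion are dimethyl esters and parathion is a diethyl ester. Between FT10ppm and MT10ppm no member was called by edgeR, DESeq2 or limma, 0% of all genes were, and no member had an unadjusted p under 0.05. The log2 difference was -1.05 for Capn8 (95% interval -2.18 to 0.09), -0.28 for Capn5 (-0.62 to 0.05) and -0.12 for Capn3 (-0.73 to 0.49). Between FT20ppm and PT20ppm again no member was called by any of the 3 tools, 0% of all genes were, and no member had an unadjusted p under 0.05. The log2 difference was -0.24 for Capn8 (-1.29 to 0.80), -0.09 for Capn5 (-0.41 to 0.24) and 0.29 for Capn3 (-0.31 to 0.89). These intervals leave room for differences of more than 2-fold in Capn8, so they do not show that the compounds act alike.

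Capn2 differed between RNA isolators. In the 4 groups that held both isolators, the EPA mice had 16.2 and 22.8 CPM in Con0ppm, 19.03 and 19.3 in FT20ppm, 16.9 in MT10ppm and 13.2 and 16.5 in MT100ppm. The EA mice of the same groups lay between 6.03 and 16.9 CPM in Con0ppm, 6.65 and 10.1 in FT20ppm, 7.55 and 9.34 in MT10ppm and 6.05 and 8.65 in MT100ppm. The EPA mice were above all EA mice in 3 of these groups, and in Con0ppm 1 EA mouse was above the lower EPA mouse. The log2 difference, EPA over EA, was 0.86 ± 0.14 (adjusted p = 7.4e-07). Capn10 differed in the same direction by 0.41 ± 0.13 (adjusted p = 0.0097). In all, 2 of 8 members were called between isolators, against 38.7% of all genes, so the share of members was not above the background. Capn3 had -0.56 ± 0.26 (adjusted p = 0.078) and Capn7 0.20 ± 0.09 (adjusted p = 0.070). limma also called Capn7 and Capns1.

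The isolator falls unevenly over the groups, and it touches the plain means, as shown here for Capn2. The control mean of 13.1 CPM was 10.5 in the 5 EA mice and 19.5 in the 2 EPA mice. Among EA mice of the control group, 2 lay at 14.1 and 16.9 CPM and 3 between 6.03 and 8.21. Of the 2 muscle markers that passed the filter, Acta1 also differed between isolators (adjusted p = 0.021) and Mylpf did not pass the test (adjusted p = 0.70). Among hepatocyte markers Alb (adjusted p = 0.0025) and Ttr (0.019) were called too, and Apoa1 (0.61) and Cps1 (0.89) were not. The 5 muscle markers summed to 6.94 to 32.2 CPM in EPA mice and 4.18 to 17.1 in EA mice. Their part in the Capn2 difference was not tested.

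**Figure D4:**
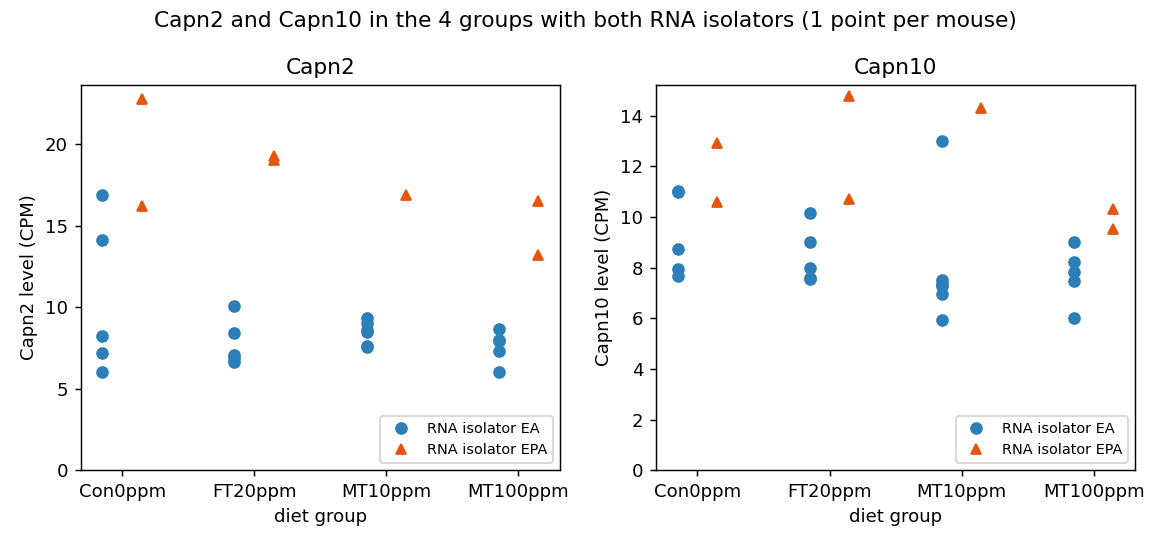
Level (CPM, 1 point per mouse) of Capn2 (left) and Capn10 (right) in the 4 diet groups that held mice of both RNA isolators, EA as circles and EPA as triangles. For Capn2, the EPA mice (13.2 to 22.8 CPM) lie above the EA mice of their group except in Con0ppm.

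Block, the label that splits each group into mice of block 1, 3 and 4, was a source of difference for Capn7 and Capn8. Capn7 had a median of 16.4 CPM in block 1 (13.7 to 25.99, n = 24), 21.2 in block 3 (14.5 to 27.5, n = 36) and 21.4 in block 4 (16.7 to 32.2, n = 24). Its log2 difference from block 1 was 0.33 ± 0.06 in block 3 and 0.36 ± 0.06 in block 4 (adjusted p over blocks 3.8e-07). Capn8 had medians of 0.797, 1.925 and 2.50 CPM in blocks 1, 3 and 4, and differed from block 1 by 0.89 ± 0.29 and 1.35 ± 0.31 (adjusted p = 0.001). Capn2 (adjusted p = 0.0093) and Capn1 (adjusted p = 0.044) also differed, both lowest in block 1. So 4 of 8 members were called between blocks, against 39.9% of all genes. Capn10 (adjusted p = 0.11), Capns1 (0.11), Capn3 (0.070) and Capn5 (0.89) did not pass.

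**Figure D5:**
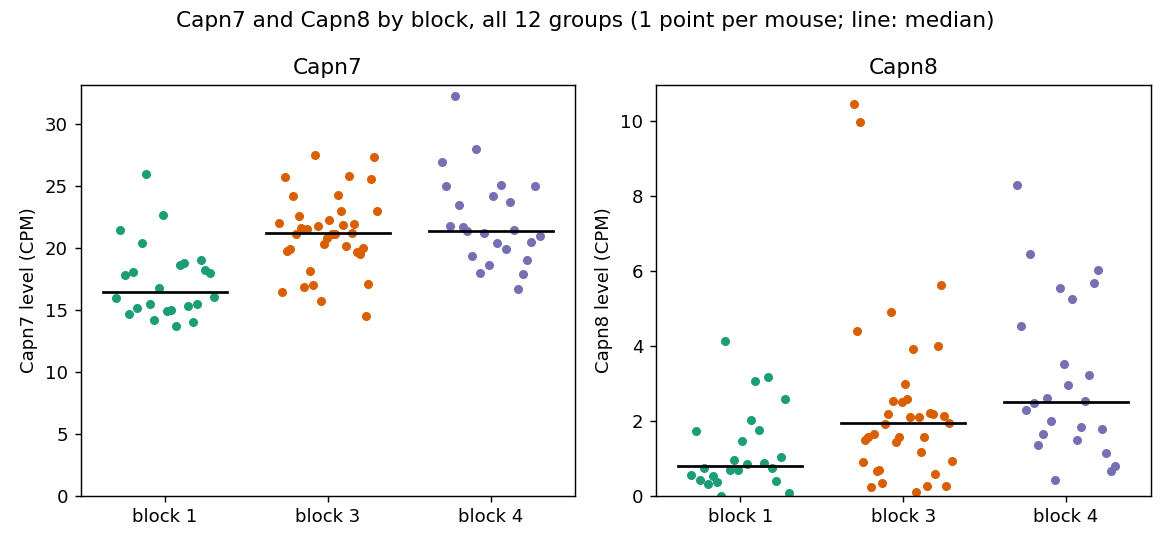
Level (CPM, 1 point per mouse, all 12 diet groups) of Capn7 (left) and Capn8 (right) by block, with a line at each median. Block 1 has the lowest median for both genes, 16.4 CPM for Capn7 and 0.797 CPM for Capn8.

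The members did not vary as 1 unit over the 84 mice. The Spearman correlation of CPM, a description over mice that share groups, blocks and isolators, was highest for Capn7 with Capns1 (0.68), Capn2 with Capn7 (0.54) and Capn2 with Capns1 (0.47). After subtracting group, block and isolator means from log2(CPM + 1) these were 0.59, 0.41 and 0.42. The neighbours Capn2 and Capn8 had 0.14 before and 0.01 after this step, and Capn3 and Capn8, both low at PT80ppm, had -0.02 and -0.06. The lowest value was -0.21, for Capn3 with Capn7.

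The genes whose levels were most like that of Capn8 over the 84 mice were Moxd1 (Spearman rho 0.85), Cxcl14 (0.75), Chrm3 (0.75), Cyb561 (0.75) and Orm1 (0.74). Orm1 encodes an acute-phase plasma protein, Cxcl14 a chemokine and Chrm3 a muscarinic acetylcholine receptor. After subtraction of group, block and isolator means they had rho between 0.64 and 0.78. The most opposite genes were Ddah1 (-0.78), Sqor (-0.78) and Hyi (-0.76). For Capn3 the likeness was weaker and faded with that subtraction. The highest were Fam3c (0.51, then 0.32), Mansc1 (0.50, then 0.38), Podn (0.49, then 0.27), Ces3b (0.48, then 0.31) and Slc22a23 (0.48, then 0.38). The lowest were Lrrc59 (-0.48), Gga2 (-0.45) and Hacl1 (-0.44).

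Among 8 other genes of the family, 6 had a row in the counts and 2 passed the filter. Cast, the calpastatin inhibitor, had a median of 1200 counts, and Capn15 26. Capn6, Capn11, Capn12 and Capn13 had a median of 0 and at most 2, 2, 7 and 9 counts in any mouse, and Capn9 and Capns2 were not analysed here. Neither Cast nor Capn15 was called in any dosed group against control by edgeR, DESeq2 or limma, neither had an unadjusted p under 0.05 there, and Cast had a log2 fold change of 0.14 ± 0.09 at PT80ppm (adjusted p = 0.32). Cast was higher at PT80ppm than at PT20ppm by 0.28 ± 0.09 (adjusted p = 0.017) and than at PT40ppm by 0.29 ± 0.09 (adjusted p = 0.018).

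Of 30 textbook substrates and partners of calpains, 26 were tested, and Ezr, Actn1, Ttn and Cdk5r1 fell below the filter. These are RNA levels, and neither the proteins nor their cutting by calpains was measured here. At PT80ppm 8 were called, 6 higher and 2 lower, which is to be read against the 18.6% of all genes called there, and the list's median log2 fold change was 0.03 beside 0.01 over all tested genes. The largest were Itgb3, an integrin of platelets and macrophages, at 1.75 ± 0.31 (adjusted p = 2.4e-05), and Nfkbia, the inhibitor of NF-kappaB, at 0.64 ± 0.20 (adjusted p = 0.016). Prkca, a protein kinase C, rose by 0.53 ± 0.11 (adjusted p = 4.2e-04), and Ppp3ca, the catalytic subunit of calcineurin, by 0.39 ± 0.14 (adjusted p = 0.035). Between isolators 17 of the 26 were called, 12 higher and 5 lower in EPA mice, against 38.7% of all genes. The 2 that fell at PT80ppm were Vcl, encoding vinculin, and Ctnnb1, encoding beta-catenin. In the other 10 dosed groups none of the 26 was called against control by edgeR, DESeq2 or limma, and between 0 and 4 per group had an unadjusted p under 0.05.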

How the data were processed

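RNA of 84 mouse livers was measured by TempO-Seq. The authors aligned the reads to mm39 and quantified Ensembl transcripts in Partek by an expectation-maximization method, and deposited estimated counts per gene without normalization for 17695 genes, of which 17.9% of values were not whole. The authors also deposited values of 11064 genes on a log2 scale that they had filtered, scaled to CPM and adjusted for block and RNA isolator. The authors' adjusted values, entered as a score because their columns could not be range-checked, were used only for differences without a test. All columns were used.

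Counts were rounded and fitted with edgeR 4.0.16 (quasi-likelihood test, TMM) in R 4.3.3, in 1 model of all mice with group, block and isolator, over the 10415 genes with a median count above 8, with Benjamini-Hochberg adjustment over all of them. Standard errors are the log2 fold change divided by the square root of F, and 95% intervals are 1.96 SE either side. CPM divides a count by the mouse's total, which lay between 6950381 and 15300589. The floor of 3 counts covers counting error only, whereas the intervals and p-values reflect the spread between mice. DESeq2 1.42.0 and limma 3.58.1 were alternatives, beside other filters, covariates and subsets of mice, and the fits were tested on simulated data. Labels name separate animals as replicates. Names and positions are from GENCODE vM39 (GRCm39), a later release than the authors' annotation. The members and lists were chosen with earlier results of these data known. Named genes are the 8 members, a fixed list of other family genes, up to 4 called substrates with the largest change, the 5 most and 3 least like genes for Capn3 and Capn8, and genes that overlap or neighbour a member.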

Additional observations from a re-analysis of the deposited data

Results flagged for a closer look

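Dixon's test for the highest or lowest mouse of a group, at its 95% critical value, was applied to the CPM of the 8 members in 12 groups, 96 checks in all, of which 8 were positive. Chance alone flags about 1 in 20 groups. One mouse at FT2.5ppm, replicate 7 of block 4 and isolator EA, was the highest of its group for 5 members, 4 of them by this test. It had 27.22 CPM of Capn2, where the next mouse had 11.2, 6.443 CPM of Capn8 (next 2.27), 13.16 CPM of Capn10 (next 8.95) and 140.3 CPM of Capns1 (next 97.5). It also had the highest Capn7 level of the group, 32.22 CPM (next 24.21), and the lowest of Capn1 (1.45 CPM), Capn3 (0.272) and Capn5 (1.36), which did not pass Dixon's test. At MT10ppm the mouse isolated by EPA had 16.89 CPM of Capn2 against at most 9.34 in the others. For Capn10, 1 mouse of block 1 at MT25ppm stood at 12.19 CPM (next 8.49) and 1 of block 3 at MT50ppm at 10.65 CPM (next 8.09). For Capns1, 1 mouse of block 1 at FT10ppm stood at 108 CPM (next 81.3).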

How the results depend on the processing

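The number of members called at PT80ppm, 2 in the report, was 1 without covariates, 1 in control and PT mice alone, 1 without block 1 and 0 without block 3. Leaving out single mice gave 1 to 3, with Capn3 called in 7 of 14 such refits and Capn8 in 14. Capn3 and Capn8 were chosen on these mice, so how far these counts hold supports nothing about them. At FT10ppm, 2 in the report, it was 1 without the filter on low counts, 1 by limma, 1 without block 4 and 0 in EA mice alone, in control and FT mice alone, without block 1 and without block 3. Leaving out single mice gave 0 to 2, and Capn8, which was chosen on fenthion values, was called in 10 of 14 such refits. Against PT40ppm, 1 in the report, it was 0 without the filter, without covariates and in EA mice, and 2 by limma. Against PT20ppm, 2 in the report, it was 1 by DESeq2, 0 without the filter, 0 without covariates and 1 in EA mice, and limma called 3 (Capn7, Capn8 and Capns1). Between isolators, 2 in the report, limma called 4. The counts at MT100ppm, in the other 8 dosed groups, between blocks and for the 3 remaining pairs of dosed groups stayed within 1.5 times the reported count in all alternatives run. The fewer mice or genes of a subset are part of its construction, and otherwise the cause was not tested.

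No called member changed direction in any alternative that gave a test. The values that were not called and that changed sign with a move of more than 1 SE were as follows, on the log2 scale, and sign changes within 1 SE are not listed. Without block 3, Capn1 at FT2.5ppm was -0.13, Capns1 at MT25ppm 0.013 and at MT100ppm 0.034, Capn8 at PT20ppm 0.16 and between PT80ppm and PT40ppm 0.065. Capn10 was -0.36 between PT80ppm and PT40ppm and -0.32 against PT20ppm, where Capn2 was -0.078 and Capns1 -0.00214. Between FT20ppm and PT20ppm Capn1 was -0.24 and Capns1 -0.049. Without block 4, Capn3 at FT2.5ppm was 0.031, Capn2 was 0.11 at FT5ppm, 0.00879 at MT25ppm and 0.025 at MT50ppm, and Capn8 between FT20ppm and PT20ppm was 0.52. Without block 1, Capn7 was -0.17 and Capns1 -0.17 at FT10ppm, Capn10 at PT80ppm 0.012 and Capn7 between FT10ppm and FT20ppm -0.050. Without covariates Capn2 at FT2.5ppm was -0.15. By limma Capn7 at PT80ppm was 0.12 and Capns1 0.091. At FT10ppm, leaving out single mice moved Capn7 between -0.14 and 0.078 and Capns1 between -0.13 and 0.145, both negative without FT10ppm replicate 2. On the deposited adjusted values, which carry no test here, Capn3 differed by -1.48 at PT80ppm and -0.27 to -1.37 in the other dosed groups, Capn8 by -1.47 to -2.97, and Capn2 by -0.61 to -1.13, where edgeR gave -0.42 to 0.15. Capn10 differed by 0.067 to 0.36 on these values, positive in all 11 dosed groups, where edgeR gave -0.27 to -0.03. These 11 differences share 1 control group. In the adjusted values, control replicates 3, 6 and 7 sit at the control mean of each member (4.062 for Capn10), so they add no information on spread. Replicates 4, 6 and 7 at FT20ppm and at MT100ppm likewise sit at their group's mean. The sign also differed from that of edgeR for Capn1 at FT2.5ppm, FT5ppm, FT20ppm and MT50ppm (-0.33 to -0.037), Capn2 at FT2.5ppm, Capn3 at FT20ppm and MT50ppm, Capn7 at PT80ppm, and Capns1 at FT2.5ppm and FT10ppm. No paired analysis was possible because the labels give no replicate numbers shared between groups.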
